A study of Mus musculus with 12 samples.

Results

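The genes described here are 49 members of the TGF-beta and BMP signalling system, chosen by symbol as ligands, latency proteins, receptors, extracellular inhibitors, SMAD proteins, their regulators and known target genes. All 49 were found among the 29965 genes listed under normoxia and normoglycaemia (NX/NG) and the 29775 listed after deprivation of oxygen and glucose with reoxygenation (OGD-R), and all 49 had a value above 0 in every library. They were measured by RNA-seq in primary brain endothelial cells (BECs) of brain microvessels from wild-type (Cort+/+, labelled WT) and cortistatin-deficient (Cort-/-, labelled KO) mice, of strain C57BL/6 (C57BL/6J in the study's methods). Cort-/- animals lack the neuropeptide cortistatin in every tissue and not in endothelium alone. Each replicate pooled cells of 3 mice, wild-type donors were 8 weeks old, and the cultures were enriched for endothelium with puromycin for 60 h. The labels call the environments NM and OGD, and also attach a stroke model (MCAO) to every sample. In the study's methods the cells were cultured, under NX/NG for 24 h at 21% oxygen and 5.5 mM glucose, or for 4 h at 1% oxygen without glucose or serum followed by 20 h of reoxygenation. Of 12 samples, 10 have a column of values, 3 Cort+/+ and 2 Cort-/- libraries in each environment (Cort-/- replicates 1 and 2 under NX/NG, and 1 and 3 after OGD-R).

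TGF-beta family ligands are secreted dimers, many of them held latent in the extracellular matrix, that bring together type II and type I receptor kinases at the cell surface. The type I kinase phosphorylates receptor SMADs, which join Smad4, enter the nucleus and change transcription. SMAD2 and SMAD3 carry TGF-beta and activin signals, while SMAD1, SMAD5 and SMAD9 carry BMP signals and induce the Id genes. In endothelium the type I receptor ALK1 (Acvrl1) and the co-receptor endoglin (Eng) are known for their role in vessel formation and are mutated in hereditary haemorrhagic telangiectasia.

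Each library held between 12386048 and 12390428 reads on genes. Of these, Rn18s-rs5, a ribosomal transcript, made up 0.0775% in replicate 1 of Cort+/+ after OGD-R and 0.0951% in replicate 3 of the Cort-/- OGD-R group. The range elsewhere was 7.64 to 15.8%, so the reads left for other genes differed more than the totals, and those 2 libraries are called rRNA-poor below. Cort itself had at most 2 reads in any library, with 0 in all 4 Cort-/- libraries, which is too few to check the genotype labels. The 10 endothelial markers summed to between 1103 and 1591 RPKM and Cdh5 lay between 443 and 740 RPKM. The 4 astrocyte, 4 oligodendrocyte and 4 neuron markers summed to at most 0.229, 0.631 and 1.05 RPKM. The sum of 8 epithelial markers was 66.1 RPKM in Cort+/+ NX/NG replicate 2 and 45.9 RPKM in Cort-/- OGD-R replicate 1. It ran from 10.2 to 20.8 RPKM elsewhere. The sum of 5 choroid plexus markers ran from 13.3 to 19.5 RPKM, most of it from Clic6 (12.4 to 19.1 RPKM). That of 6 detected macrophage and microglial markers ran from 2.60 to 4.29 RPKM. Smooth muscle markers summed to between 994.8 and 1777 RPKM, nearly all from Acta2 and Tagln. Cnn1 lay between 6.08 and 16.4 RPKM, while Myh11, Des and Myocd stayed at or below 2.11, 0.369 and 0.215 RPKM.

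The fibroblast and pericyte marker sums lay below those of Cort+/+ in both Cort-/- libraries under NX/NG and overlapped after OGD-R. Under NX/NG the 10 fibroblast and leptomeningeal markers summed to 86.3 and 124 RPKM in Cort-/- against 196 to 284 RPKM in Cort+/+, and the 8 pericyte markers to 10.5 and 13.1 against 21.6 to 26.6 RPKM. After OGD-R the first sums were 204 and 256 against 236 to 349 RPKM, and the second 17.8 and 22.7 against 19.6 to 26.1 RPKM. At an unadjusted p under 0.05 in limma, 4 of 10 fibroblast markers were lower in Cort-/- under NX/NG (median log2 fold change -0.52 over the list) and 3 of 10 after OGD-R (median -0.45), and of the pericyte markers 4 of 8 (median -0.50) and 1 of 8 (median -0.22). None of either list was higher at that threshold. Of the 6 smooth muscle markers 0 were lower or higher at that threshold in either environment (medians -0.08 and -0.11), with overlapping sums. Under NX/NG these were 1300 and 1556 RPKM in Cort-/- against 1449 to 1777 RPKM in Cort+/+. Of the 10 endothelial markers 2 were higher in Cort-/- under NX/NG (median 0.24) and 0 after OGD-R (median 0.16), with 0 lower. Among the pericyte markers Pdgfrb lay between 5.17 and 15.4 RPKM, and Cspg4, Rgs5, Anpep and Notch3 reached 5.16, 3.53, 3.43 and 2.62 RPKM. The pericyte genes Kcnj8 and Abcc9 lay at no more than 0.0353 and 0.0204 RPKM. The fibroblast genes Lum, Dpt and Slc6a13 lay at no more than 0.149, 0.0495 and 0.0576 RPKM. Most of the fibroblast sum came from Col1a1, Col1a2 and Col3a1, which reached 222, 63.8 and 66.55 RPKM. No other gene of that list exceeded 4.885 RPKM (Fbln1). Col1a1 is also counted among the known TGF-beta responsive genes below. In bulk RNA, fewer cells of a type and less RNA per cell cannot be told apart, and the part of these other cell types in the differences given below was not tested.

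Levels are given as deposited RPKM (read number per kilobase of gene, relative to library size), which allows a comparison between genes. The most abundant member was Fstl1, a secreted follistatin-related glycoprotein, at 171 to 283 RPKM, followed by Eng at 136 to 222 RPKM and Acvrl1 at 89.0 to 123 RPKM. Acvr1, a type I receptor for BMPs and activins, lay an order lower at 9.30 to 11.6 RPKM. Among type II receptors Tgfbr2, which binds TGF-beta, stood at 42.4 to 79.0 RPKM and Bmpr2, the BMP type II receptor, at 8.04 to 12.9 RPKM. The ligands were led by Inhba, which encodes the subunit of activin A, at 33.5 to 47.5 RPKM and Bmp4 at 27.3 to 49.3 RPKM, with Tgfb2 at 12.8 to 24 RPKM above Tgfb1 at 8.99 to 11.5 RPKM. Ltbp3 (11 to 20.8 RPKM) was the most abundant of the latent TGF-beta binding proteins, which hold the ligand in the matrix, and Bmp1 (20.8 to 36.4 RPKM), a protease that cleaves BMP antagonists and procollagen, stood second among the extracellular modulators. At the other end, Nog, Acvr2b, Id4 and Smad9 were the 4 members with a mean below 1 RPKM, and Nog rested on 1 to 12 reads a library.

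Several intracellular members varied little between libraries. The common SMAD, Smad4, lay between 18.5 and 21.6 RPKM, Smad3 between 13.8 and 16.9, and Smad2 between 7.70 and 9.43 RPKM over all 10 libraries, while Smad5 ranged more widely, from 12.8 to 21 RPKM. Smurf1, a ubiquitin ligase that removes SMADs and receptors, lay between 22.2 and 26.4 RPKM, an SD of 0.085 on the log2 scale, next to 0.086 for Smad4. By contrast the SD was 1.11 for Bmp2 and 1.02 for the scarcely detected Nog. Bmp2 was at 1.73 RPKM in Cort+/+ NX/NG replicate 2, 1.84 in replicate 3 of the Cort-/- OGD-R group, 2.23 and 3.70 in replicates 1 and 2 of Cort+/+ after OGD-R, and between 6.06 and 11.2 RPKM in the other 6 libraries. So Bmp2 varied 6.44-fold between libraries with no order by genotype, and the rRNA-poor libraries are among its low ones. In the plot of levels, each role is shown with its members in order.

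**Figure D1:**
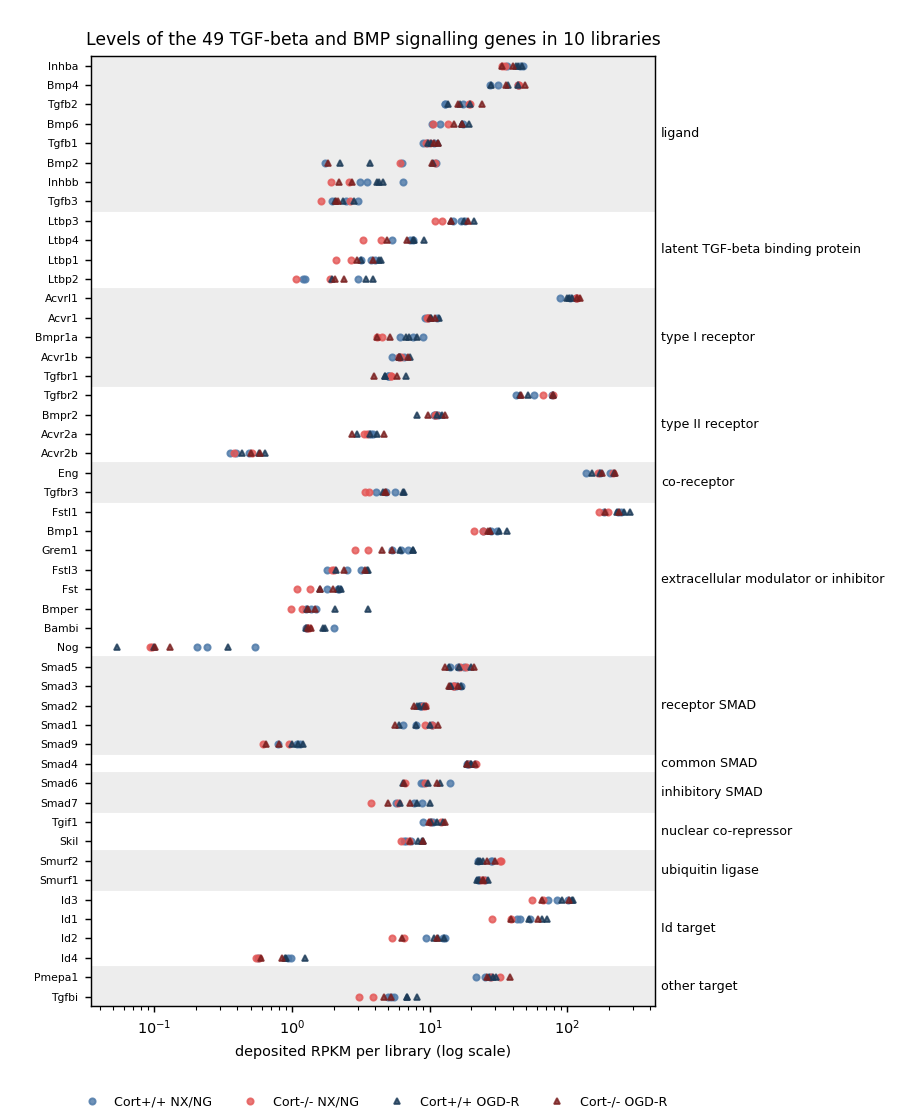
Deposited RPKM of the 49 members in each of the 10 libraries (log axis), grouped by role and ordered by mean within a role. Circles are NX/NG and triangles OGD-R libraries, blue Cort+/+ and red Cort-/-; Fstl1, Eng and Acvrl1 lie near 100 RPKM or above, and Nog below 1 RPKM.

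The first question was whether resting BECs without cortistatin differ in these genes. Under NX/NG the members that were lower in Cort-/- at an unadjusted p under 0.05 were the targets Id1, Id2, Id3 and Tgfbi, the latent TGF-beta binding proteins Ltbp1, Ltbp3 and Ltbp4, the BMP and activin inhibitors Grem1 and Fst, the receptor Bmpr1a and the co-receptor Tgfbr3, and no SMAD was among them. With limma, none of the 49 members passed a false discovery rate (FDR) of 0.05, and none of the 29965 genes tested did (0%). At an unadjusted p under 0.05, 11 members were lower in Cort-/- (22.4% of the members, against 4.82% of all genes) and 2 were higher (4.08%, against 3.56%). All genes, here and below, include many scarcely expressed ones. Of the 27321 genes tested in both environments 13789 had a mean of at least 1 RPKM, against 45 of 49 members. The members were also chosen with earlier results of these data known, so these shares are a description and not independent support. The median log2 fold change of Cort-/- over Cort+/+, on the log2(RPKM + 0.1) scale used throughout, was -0.17 over the members and -0.014 over all genes.

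Grem1 encodes gremlin 1, a secreted antagonist of BMP2 and BMP4. It stood at 2.87 and 3.57 RPKM in the Cort-/- libraries under NX/NG and at 6.21, 5.36 and 6.98 RPKM in the Cort+/+ libraries. Both Cort-/- values were below every Cort+/+ value, a log2 fold change of -0.92 ± 0.15 (SE) with an FDR of 0.24. Fst encodes follistatin, which binds and neutralises activins, and lay at 1.36 and 1.08 RPKM against 2.20, 2.16 and 1.80 RPKM (-0.71 ± 0.17). The other 6 modulators had no unadjusted p under 0.05, but their fold changes were also below 0, from -0.17 for Bambi, a decoy receptor, to -1.06 for Nog. Fstl1, the most abundant of them, was at 198 and 171 RPKM against 231, 245 and 185 RPKM, with overlapping groups, and Bmp1 at 24.3 and 20.8 against 30.9, 27.7 and 24.4 RPKM.

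Of the Id genes, which encode dominant-negative partners of basic helix-loop-helix factors, 3 of 4 had an unadjusted p under 0.05. Id2 was at 6.54 and 5.36 RPKM in Cort-/- and 12.9, 12.4 and 9.32 RPKM in Cort+/+ (-0.94 ± 0.17, FDR 0.27). Id1 lay at 38.9 and 28.3 against 43.4, 53.1 and 45.4 RPKM (-0.51 ± 0.16), and Id3 at 67.0 and 55.4 against 83.8, 101 and 71.8 RPKM (-0.47 ± 0.17). No value of these 3 genes overlapped between genotypes, while Id4, near 0.5 to 1 RPKM, did overlap (-0.46 ± 0.31). Tgfbi, which encodes a TGF-beta-induced matrix protein, was at 3.05 and 3.86 RPKM against 5.52, 4.98 and 5.20 RPKM (-0.59 ± 0.12, FDR 0.31). Pmepa1, a TGF-beta target that restrains receptor SMADs, was higher in both Cort-/- libraries, at 28 and 32.2 against 25.4, 21.8 and 27.3 RPKM, with an FDR of 0.64.

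All 4 latent TGF-beta binding proteins had a fold change below 0, and 3 an unadjusted p under 0.05. Ltbp3 stood at 12.3 and 11 RPKM in Cort-/- against 16.8, 18 and 14.6 RPKM in Cort+/+ (-0.50 ± 0.11). Ltbp4 was at 4.43 and 3.28 against 7.17, 7.56 and 5.30 RPKM (-0.78 ± 0.21), and Ltbp1 at 2.67 and 2.07 against 3.77, 4.03 and 3.16 RPKM (-0.61 ± 0.16). In each of the 3 the genotypes did not overlap. Ltbp2 overlapped, with 1.07 and 1.89 against 1.21, 3.03 and 1.25 RPKM.

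At the cell surface, Bmpr1a (ALK3), a type I receptor for BMPs, was at 4.13 and 4.52 RPKM in Cort-/- and at 8.93, 7.56 and 6.12 RPKM in Cort+/+ (-0.77 ± 0.17, FDR 0.35). Tgfbr3 (betaglycan), which presents TGF-beta2 to the signalling receptors, lay at 3.61 and 3.37 against 5.56, 4.08 and 4.78 RPKM (-0.44 ± 0.15). The other 4 type I and all 4 type II receptors ranged from -0.12 to 0.33. Acvrl1 was at 117 and 116 RPKM in Cort-/- and 89.0, 104 and 115 RPKM in Cort+/+ (0.19 ± 0.12). Eng, its partner, overlapped at 215 and 166 against 136, 203 and 174 RPKM, and so did Tgfbr2, at 66.2 and 78.1 against 57.6, 42.4 and 77.0 RPKM.

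Tgfb2 and Smurf2 were higher at an unadjusted p under 0.05. Tgfb2, the ligand that depends on betaglycan for tight receptor binding, was at 19.7 and 19.2 RPKM in Cort-/- and 12.9, 12.8 and 17.4 RPKM in Cort+/+ (0.45 ± 0.15). Smurf2, a ubiquitin ligase for SMADs and type I receptors, lay at 32.3 and 33.2 against 22.5, 27.8 and 28.5 RPKM (0.32 ± 0.12). Among the other ligands, Tgfb1 was level (10.1 and 9.41 against 8.99 to 10.7 RPKM, 0.00 ± 0.09). Inhbb, for a second activin subunit, was at 2.61 and 1.90 against 6.44, 3.49 and 3.14 RPKM (-0.86 ± 0.35). Inhba was at 35.4 and 33.5 against 47.5, 45.2 and 36.1 RPKM, and Bmp4 at 44.7 and 43.8 against 27.3, 43.5 and 31.5 RPKM, without overlap but with unadjusted p-values of 0.063 and 0.103 in limma. For the SMADs the fold changes ran from -0.34 (Smad9) to 0.27 (Smad1) in the receptor group and 0.05 ± 0.09 for Smad4. The inhibitory Smad7, a BMP and TGF-beta target that blocks type I receptors, was at 5.91 and 3.72 against 7.69, 8.77 and 5.66 RPKM (-0.62 ± 0.27), and Smad6 at 9.17 and 6.65 against 8.58, 13.9 and 8.93 RPKM. Tgif1 and Skil, nuclear co-repressors, and Smurf1 all overlapped between genotypes.

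Counted over all members under NX/NG, the genotypes did not overlap in 17 that were lower in Cort-/- (34.7%, against 12.3% of all genes) and in 7 that were higher (14.3%, against 10.8%). The fibroblast and pericyte marker sums given above, like each of the 11 lower members, were lower in both Cort-/- libraries than in every Cort+/+ library. The order of libraries within a genotype was not shared, as Cort-/- replicate 1 had the higher fibroblast sum and the lower pericyte sum. Leaving out Cort-/- replicate 2 took the number of members with an unadjusted p under 0.05 from 13 to 2, leaving out Cort-/- replicate 1 took it to 8, and leaving out Cort+/+ replicate 3 took it to 22. Without Cort-/- replicate 2 the fold change of Id1 was -0.28, and without Cort+/+ replicate 1 that of Smurf2 was 0.22. With limma-voom on the reads, 21 members had an unadjusted p under 0.05 and 2 passed the FDR, Grem1 (-0.93, FDR 0.040) and Id2 (-0.95, FDR 0.049). Over all genes the calls at the FDR also rose with limma-voom, from 0 to 124. The share of all genes with an unadjusted p under 0.05 is not given here for these alternatives, so the counts are not specific to the members.

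After OGD-R the same comparison was made in other libraries. The lower members in Cort-/- were now Inhbb, Bmpr1a, Tgfbi, Grem1 and Ltbp4, with Smurf2 again higher, while Id1, Id2 and Id3 overlapped between genotypes. No member and none of the 29775 genes passed the FDR in limma (0%), and the same was true of the members in limma-voom. At an unadjusted p under 0.05, 5 members were lower (10.2%, against 1.71% of all genes) and 1 was higher (2.04%, against 1.72%). The median log2 fold change was -0.10 over the members and -0.009 over all genes.

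Inhbb was at 2.20 and 2.70 RPKM in Cort-/- OGD-R replicates 1 and 3, and at 4.60, 4.17 and 4.27 RPKM in the Cort+/+ libraries (-0.81 ± 0.14, FDR 0.46). Its Cort+/+ values after OGD-R were close to each other, unlike those under NX/NG. Bmpr1a lay at 4.16 and 5.18 against 7.04, 6.68 and 8.10 RPKM (-0.63 ± 0.15, FDR 0.74). Tgfbi stood at 5.27 and 4.68 against 6.86, 8.14 and 6.79 RPKM (-0.53 ± 0.13, FDR 0.79). For Grem1 the values were 5.32 and 4.47 against 6.09, 7.56 and 7.50 RPKM (-0.52 ± 0.15). Each Cort-/- value of these 4 genes thus lay below all 3 Cort+/+ values. Ltbp4 was at 4.91 and 6.88 against 9.05, 7.54 and 7.73 RPKM (-0.47 ± 0.18), and Smurf2 at 29.7 and 26.3 against 23.2, 22.5 and 24.2 RPKM (0.26 ± 0.09). In none of these 6 genes did the genotypes overlap. The value of Ltbp4 moved with single libraries, to -0.23 without Cort-/- replicate 1 and to -0.71 without replicate 3, and Smurf2 was at 0.17 without Cort-/- replicate 1. In the same libraries 3 of 10 fibroblast markers and 1 of 8 pericyte markers were lower at an unadjusted p under 0.05, as given above. The plot by library shows the 6 genes in all 4 groups.

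**Figure D2:**
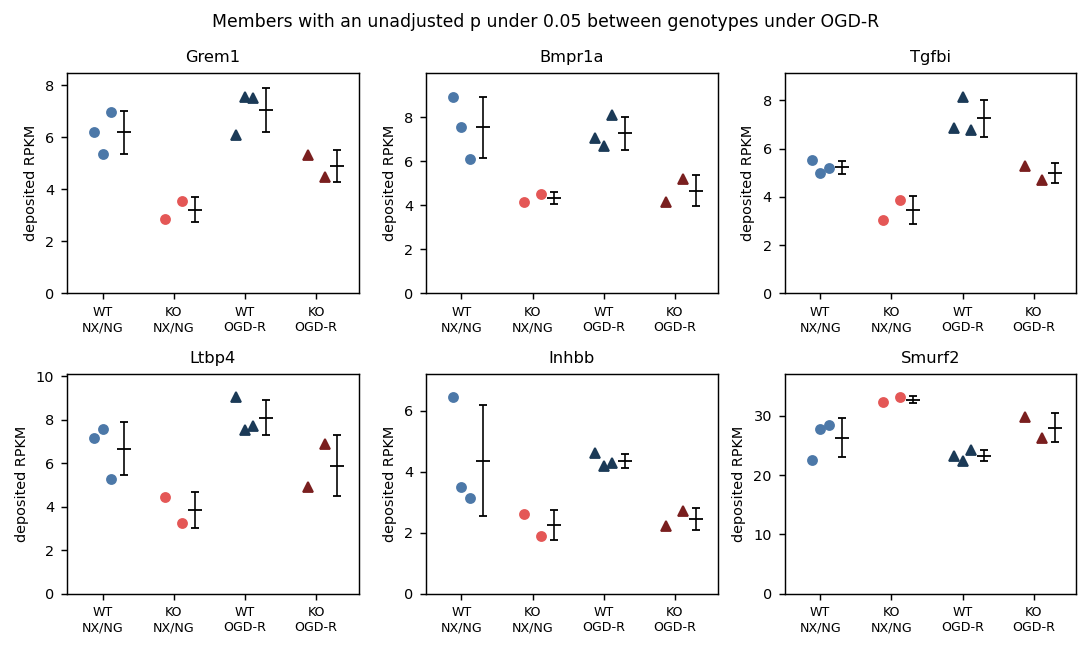
Deposited RPKM of Grem1, Bmpr1a, Tgfbi, Ltbp4, Inhbb and Smurf2 in each library (axes from 0), with the mean and SD of each group as black bars (WT, n = 3; KO, n = 2). In each environment the Cort-/- libraries lie below the Cort+/+ libraries for the first 5 genes and above them for Smurf2.

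Id4, near 1 RPKM, did not overlap between genotypes after OGD-R, at 0.842 and 0.590 against 0.908, 1.24 and 0.891 RPKM (-0.45 ± 0.30). For the other Id genes the 2 Cort-/- libraries stood apart from each other, with replicate 3 the higher. Id2 was at 6.26 RPKM in Cort-/- replicate 1 and 11.3 RPKM in replicate 3, against 12.7, 11.6 and 10.8 RPKM in Cort+/+ (-0.47 ± 0.25). Id1 was at 38.8 and 61.3 against 65.7, 70.7 and 52.4 RPKM (-0.36 ± 0.24), and Id3 at 65.1 and 103 against 107, 111 and 91.2 RPKM (-0.32 ± 0.22). Cort-/- replicate 3, the higher value in each of the 3, is rRNA-poor, as is Cort+/+ replicate 1. Both of these were left out in an alternative chosen after seeing the data, which leaves 1 Cort-/- library and so no spread within that group. Id2 then stood at -0.83, and Id1 and Id3 are not given for that setting. In that setting Inhbb (-0.91), Ltbp4 (-0.63), Grem1 (-0.49), Bmpr1a (-0.81), Tgfbi (-0.49) and Smurf2 (0.35) kept their sign, and with 1 Cort-/- library only these sizes are given. Without Cort+/+ replicate 1 alone, Grem1 (-0.62), Inhbb (-0.76), Tgfbi (-0.57) and Bmpr1a (-0.65) had an unadjusted p under 0.05, and no other member did.

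**Figure D3:**
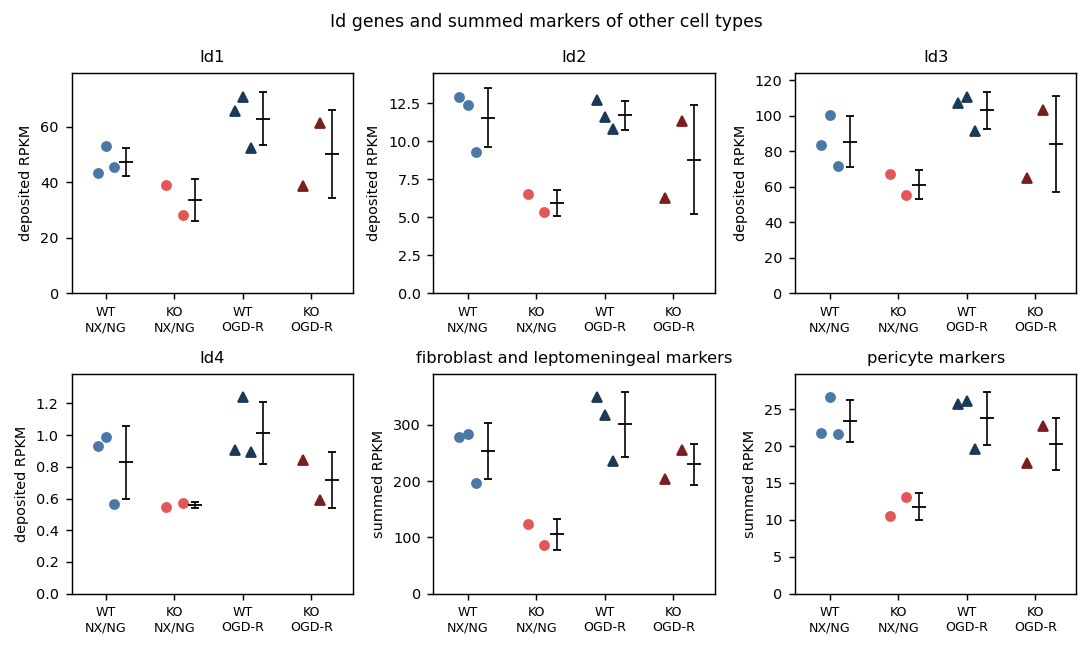
Deposited RPKM of the 4 Id genes and the summed RPKM of 10 fibroblast and leptomeningeal and 8 pericyte markers in each library (axes from 0), with group means and SDs as black bars (WT, n = 3; KO, n = 2). Under NX/NG the Cort-/- libraries lie below all Cort+/+ libraries for Id1, Id2, Id3 and both sums; after OGD-R Id1, Id2 and Id3 overlap, as do both sums.

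Apart from Bmpr1a, no receptor or SMAD had an unadjusted p under 0.05 after OGD-R. Tgfbr3 stood at -0.26 ± 0.18 and Smad7 at -0.40 ± 0.26, with overlapping groups. Acvrl1 was at 117 and 123 RPKM in Cort-/- and 108, 102 and 99.7 RPKM in Cort+/+, without overlap (0.21 ± 0.11, FDR 0.98). Eng stood at 180 and 222 against 218, 173 and 151 RPKM. Among the receptor SMADs Smad1, Smad2, Smad3 and Smad5 ranged from -0.02 to 0.04, while Smad9, at about 1 RPKM, was at -0.54 ± 0.25. Tgfbr2 lay at 78.4 and 45.7 against 45.3, 51.5 and 79.0 RPKM, and Smad1 at 11.5 and 5.55 against 5.97, 7.92 and 9.99 RPKM. The rRNA-poor library was thus the low one of its group in both genotypes for both genes. Under NX/NG Cort+/+ replicate 2, which is not rRNA-poor, was also the low one of its group, at 42.4 RPKM for Tgfbr2 and 6.39 RPKM for Smad1. Without overlap were 8 members that were lower in Cort-/- (16.3%, against 6.71% of all genes) and 2 that were higher (4.08%, against 7.54%).

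**Figure D4:**
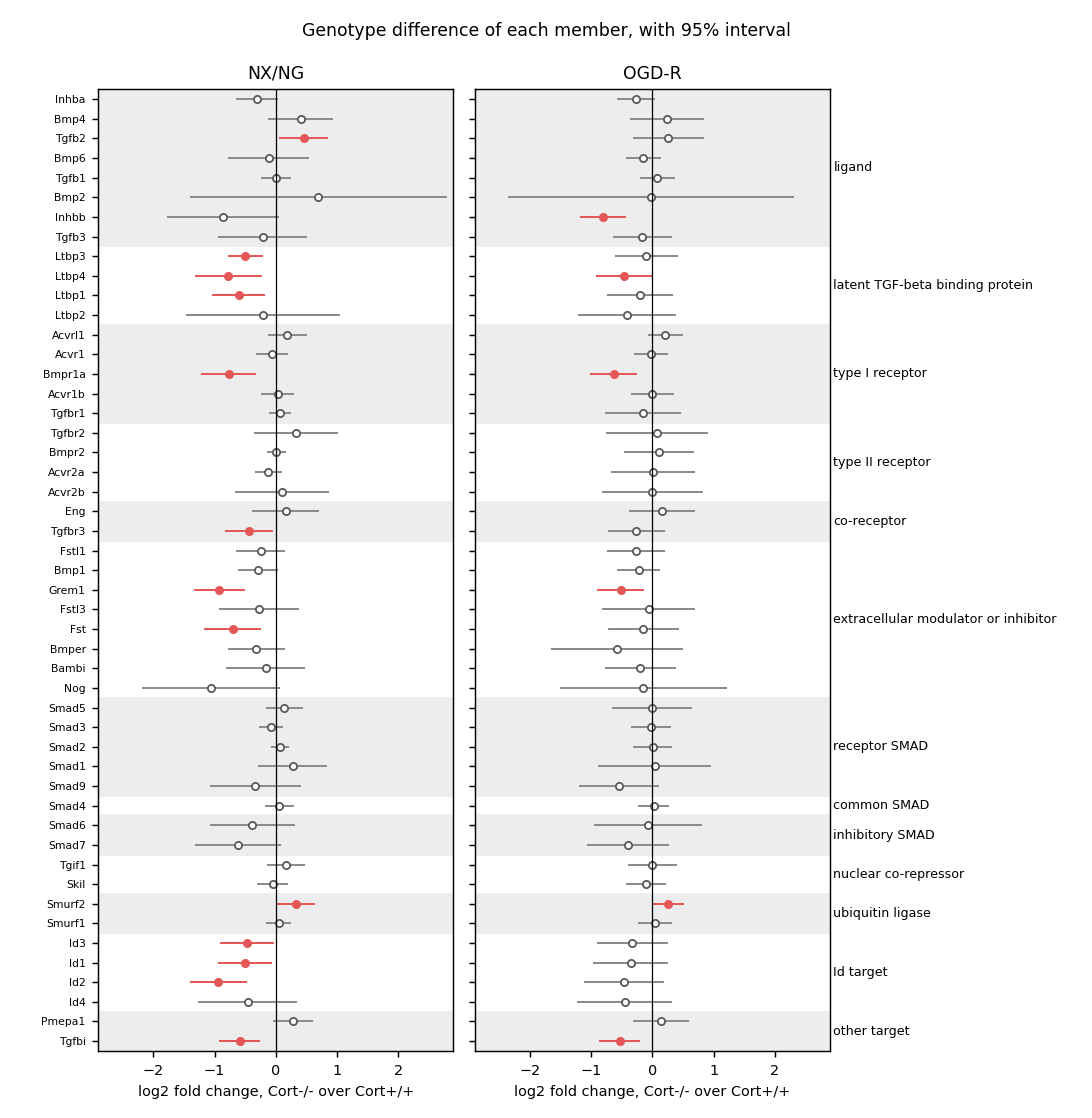
Log2 fold change of Cort-/- over Cort+/+ with its 95% interval for each of the 49 members under NX/NG (left) and after OGD-R (right), grouped by role. Filled red points have an unadjusted p under 0.05 in limma (13 under NX/NG and 6 after OGD-R); the intervals of the SMADs cross 0 in both panels.

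The genotype comparisons of the 2 environments share no library. The fold change had the same sign in both for 43 of the 49 members (87.8%), 29 below 0 and 14 above 0, against 60.1% of the 27321 genes tested in both and 66.4% of the 13789 genes whose mean reached 1 RPKM. Grem1, Bmpr1a, Tgfbi and Ltbp4 were lower and Smurf2 higher at an unadjusted p under 0.05 in both, 5 of 49 members (10.2%), against 0.992% of all genes and 1.76% of those with at least 1 RPKM. By role, the latent TGF-beta binding proteins had medians of -0.55 under NX/NG and -0.31 after OGD-R, the Id targets -0.49 and -0.40, and the 8 extracellular modulators -0.31 and -0.21, with every member of these 3 roles below 0 in both environments. The receptor SMADs had medians of 0.07 and -0.01, and the type II receptors 0.05 and 0.04.

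The promoters of Bmpr1a, Grem1, Tgfbi and Smurf2, which had an unadjusted p under 0.05 in both environments, and of Id2 and Id3, known direct BMP targets, are printed as the 250 bases before the RefSeq gene start (GRCm38.p6), from 5′ to 3′ on the gene's strand. Capitals mark 2 motifs known to be bound by SMADs, the GC-rich GGCGCC, which is its own reverse complement, and the SMAD box GTCTG, or CAGAC on the other strand. They lie at chr14:34502547-34502796 (Bmpr1a, minus strand), chr2:113758649-113758898 (Grem1, minus), chr13:56609336-56609585 (Tgfbi, plus), chr11:106920716-106920965 (Smurf2, minus), chr12:25096093-25096342 (Id2, minus) and chr4:136143572-136143821 (Id3, plus).
Bmpr1a: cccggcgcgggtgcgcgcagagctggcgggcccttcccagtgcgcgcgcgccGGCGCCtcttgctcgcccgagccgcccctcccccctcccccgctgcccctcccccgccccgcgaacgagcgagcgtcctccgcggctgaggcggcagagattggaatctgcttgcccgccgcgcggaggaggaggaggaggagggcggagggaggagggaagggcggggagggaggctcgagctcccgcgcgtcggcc
Grem1: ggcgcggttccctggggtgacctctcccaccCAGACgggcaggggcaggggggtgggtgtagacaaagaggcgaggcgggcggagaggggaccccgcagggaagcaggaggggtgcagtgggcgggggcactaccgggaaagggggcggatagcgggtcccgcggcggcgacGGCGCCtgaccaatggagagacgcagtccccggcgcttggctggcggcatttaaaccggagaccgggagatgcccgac
Tgfbi: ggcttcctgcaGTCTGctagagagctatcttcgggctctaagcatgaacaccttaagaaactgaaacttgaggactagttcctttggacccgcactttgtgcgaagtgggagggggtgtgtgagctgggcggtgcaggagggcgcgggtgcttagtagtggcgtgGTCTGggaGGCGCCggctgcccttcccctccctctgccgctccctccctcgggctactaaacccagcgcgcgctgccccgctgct
Smurf2: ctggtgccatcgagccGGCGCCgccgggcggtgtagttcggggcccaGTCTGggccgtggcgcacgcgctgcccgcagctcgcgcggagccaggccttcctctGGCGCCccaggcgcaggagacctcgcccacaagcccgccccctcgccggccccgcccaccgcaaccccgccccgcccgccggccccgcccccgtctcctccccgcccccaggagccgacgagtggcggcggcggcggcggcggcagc
Id2: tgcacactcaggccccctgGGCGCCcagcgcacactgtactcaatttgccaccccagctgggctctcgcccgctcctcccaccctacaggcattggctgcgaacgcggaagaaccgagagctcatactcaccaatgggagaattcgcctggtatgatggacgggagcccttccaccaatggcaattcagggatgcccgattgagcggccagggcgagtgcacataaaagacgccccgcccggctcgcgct
Id3: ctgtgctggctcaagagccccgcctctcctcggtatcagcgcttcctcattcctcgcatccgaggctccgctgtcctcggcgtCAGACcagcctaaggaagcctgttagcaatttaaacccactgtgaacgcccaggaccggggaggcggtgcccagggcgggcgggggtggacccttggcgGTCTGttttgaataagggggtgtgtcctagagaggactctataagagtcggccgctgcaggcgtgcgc

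GGCGCC was present in the windows of 5 of these 6 genes, with 2 copies in Smurf2 and none in Id3, which held 2 SMAD boxes. Grem1 held 1 SMAD box, Tgfbi 2 and Smurf2 1, and Bmpr1a and Id2 none. Over the 45 RefSeq promoters of the 35 members that matched by symbol, 12 (26.7%) held GGCGCC, against 9.59% of the 32851 promoters in the RefSeq set, and 21 (46.7%) a SMAD box, against 42.2%. The share of G and C in the printed windows ran from 62.4% in Tgfbi to 82% in Smurf2, and a match of letters is a description and not a binding site. GGCGCC holds only G and C, and the share of these bases over the 32851 promoters was not computed. The part of base content in the difference was therefore not tested. Ltbp4, which also had an unadjusted p under 0.05 in limma in both environments, is not among the printed windows.

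The next comparison, OGD-R over NX/NG within a genotype, used RPKM computed anew with all 10 libraries scaled together, which multiplied the deposited values by 1.02 to 1.03 under NX/NG and by 0.974 to 0.975 after OGD-R. The fold changes below are on that joint scale, and the RPKM printed beside them are the deposited ones. In Cort+/+ cells 0 of 49 members passed the FDR in limma or limma-voom (0.0332% of 27075 genes did in limma). Those with an unadjusted p under 0.05 were 3 higher members (6.12%, against 3.01% of all genes) and 0 lower (against 2.48%). Tgfbi went from 5.52, 4.98 and 5.20 RPKM to 6.86, 8.14 and 6.79 RPKM, without overlap (0.39 ± 0.10, FDR 0.83). Skil, a co-repressor that TGF-beta itself induces, went from 6.50, 7.31 and 6.75 to 8.71, 8.28 and 8.98 RPKM, also without overlap (0.26 ± 0.07). Id1 went from 43.4, 53.1 and 45.4 to 65.7, 70.7 and 52.4 RPKM, where the groups overlapped by 1 library (0.33 ± 0.13). Without the rRNA-poor Cort+/+ OGD-R replicate 1, Tgfbi (0.43) and Skil (0.26) still had an unadjusted p under 0.05 in limma and Id1 (0.30) did not. Leaving out Cort+/+ NX/NG replicate 2 took the count of 3 members to 6. The median over the members was 0.01, against -0.009 over all genes.

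In Cort-/- cells 0 of 49 members passed the FDR with limma or limma-voom, as did 0% of 26523 genes with limma. There were 2 higher members at an unadjusted p under 0.05 (4.08%, against 2.21% of all genes) and 1 lower (2.04%, against 1.87%). Tgfbr3 went from 3.61 and 3.37 RPKM under NX/NG to 4.82 and 4.74 RPKM after OGD-R (0.37 ± 0.11, FDR 0.92), and Grem1 from 2.87 and 3.57 to 5.32 and 4.47 RPKM (0.52 ± 0.17, FDR 0.92). Smurf2 went from 32.3 and 33.2 to 29.7 and 26.3 RPKM (-0.31 ± 0.10, FDR 0.92), and in Cort+/+ the same gene stood at -0.24 ± 0.10. Tgfbi was at 0.44 ± 0.17 in Cort-/-, near its 0.39 in Cort+/+. Ltbp1, Ltbp2, Ltbp3 and Ltbp4 ranged from 0.41 to 0.53 in Cort-/- and from 0.01 to 0.73 in Cort+/+, and the Id genes from 0.22 to 0.48 and from -0.04 to 0.33. The fibroblast and leptomeningeal marker sum went from 86.3 and 124 to 204 and 256 RPKM in Cort-/- over the same change of environment. Without the rRNA-poor Cort-/- OGD-R replicate 3, Smurf2 (-0.22) kept an unadjusted p under 0.05 in limma, while Tgfbr3 (0.38) and Grem1 (0.64) did not. Leaving out either Cort-/- NX/NG library took the count of 3 members to 0, and leaving out Cort-/- OGD-R replicate 1 took it to 9.

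**Figure D5:**
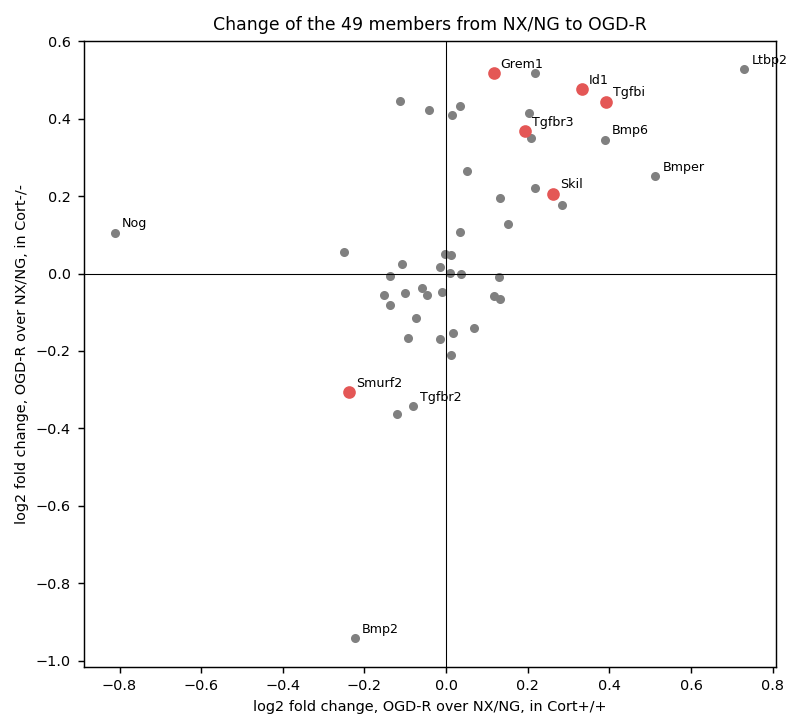
Log2 fold change of OGD-R over NX/NG for each of the 49 members in Cort+/+ (horizontal axis) and Cort-/- (vertical axis), with all libraries scaled together. Red points have an unadjusted p under 0.05 in limma in at least 1 genotype (Tgfbi, Skil and Id1 in Cort+/+, and Tgfbr3, Grem1 and Smurf2 in Cort-/-), and Bmp2, Nog and Ltbp2 lie apart from the rest.

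Whether the environment acted differently by genotype was tested by the interaction. No member passed the FDR in limma or limma-voom and none had an unadjusted p under 0.05 in limma, where 0.011% of 27321 genes passed the FDR and 1.69% and 1.17% had an unadjusted p under 0.05 above and below 0. The nearest were Fst (0.56 ± 0.28), Grem1 (0.40 ± 0.22) and Ltbp3 (0.39 ± 0.25), whose unadjusted p-values were 0.0825, 0.110 and 0.148 in limma. Leaving out Cort+/+ OGD-R replicate 1 gave 1 member with an unadjusted p under 0.05, Nog, and leaving out Cort-/- OGD-R replicate 1 also gave 1, Id2. The 95% interval for Fst ran from -0.09 to 1.21.

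Other genes of the pathway were counted in 6 lists. Like the members, these lists were chosen with earlier results of these data known, so their shares are a description and not independent support. Over all of them, 15 of 105 genes were lower in Cort-/- under NX/NG at an unadjusted p under 0.05 (14.3%, against 4.82% of all genes) and 4 higher (3.81%, against 3.56%), and after OGD-R 5 of 102 were lower (4.90%, against 1.71%) and 2 higher (1.96%, against 1.72%). A single gene among 21 is near the share of all genes under NX/NG. Of 23 tested genes for latency, activation and inhibition outside the members, 6 were lower and 0 higher at an unadjusted p under 0.05 in Cort-/- under NX/NG, and 2 and 0 after OGD-R, none at the FDR. Bgn (biglycan), a matrix proteoglycan that binds TGF-beta, was at 124 and 104 RPKM against 211, 198 and 167 RPKM under NX/NG (-0.74 ± 0.14), and at 151 and 166 against 208, 215 and 193 RPKM after OGD-R (-0.37 ± 0.14). Nbl1, a BMP antagonist of the DAN family, stood at -0.84 ± 0.18 under NX/NG, and Fbn1 (fibrillin 1), to which latent complexes attach, at -0.87 ± 0.25. After OGD-R the second gene was Twsg1, a BMP modulator (-0.21 ± 0.08).

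Of 9 further receptors and co-receptors, 3 were lower and 0 higher under NX/NG and none had an unadjusted p under 0.05 after OGD-R. For this list and the next ones, the shares of all genes were 4.82% lower and 3.56% higher under NX/NG. After OGD-R they were 1.71% and 1.72%. Cd109, a surface protein that restrains TGF-beta receptors, was at 19.4 and 20.9 RPKM in Cort-/- and at 35.6, 36.2 and 34.4 RPKM in Cort+/+ (-0.81 ± 0.05, FDR 0.080), and at 30.2 and 40.1 against 38.8, 42.7 and 40.5 RPKM after OGD-R. It was higher after OGD-R in Cort-/- (0.71 ± 0.16), and its interaction was 0.58 ± 0.16 with an FDR of 1.00. Neo1 (neogenin), a co-receptor for BMP signalling, stood at -0.83 ± 0.22 and Nrp1 (neuropilin 1) at -0.42 ± 0.08. Of 21 ligands tested under NX/NG 1 was lower, Gdf11 (-0.54 ± 0.16), which was also the 1 of 18 after OGD-R (-0.40 ± 0.14). Of 21 intracellular regulators 1 was higher under NX/NG, Fkbp1a (FKBP12), which binds type I receptors (0.25 ± 0.06), and 0 had an unadjusted p under 0.05 after OGD-R.

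Among 18 known TGF-beta responsive genes, 4 were lower and 0 higher in Cort-/- under NX/NG, and 1 and 0 after OGD-R. Col1a1, which is also in the fibroblast marker list, was at 67.5 and 46.5 RPKM against 155, 166 and 113 RPKM under NX/NG (-1.35 ± 0.24, FDR 0.25). The others were Snai2 (-0.72 ± 0.25), Snai1 (-0.40 ± 0.11), both repressors known from mesenchymal transition, and the cell cycle inhibitor Cdkn1a (-0.16 ± 0.05), and Snai2 was the gene after OGD-R (-0.36 ± 0.11). The list's medians were -0.08 and -0.09.

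The 14 genes known to respond to BMP9 and ALK1 in endothelium went both ways, 3 higher and 1 lower under NX/NG and 2 and 1 after OGD-R, with medians of 0.07 and -0.05. Nos3 (endothelial nitric oxide synthase) was at 41.2 and 39.0 RPKM in Cort-/- against 27.1, 32.3 and 34.1 RPKM under NX/NG (0.37 ± 0.11), and at 34.0 and 36.0 against 27.1, 25.5 and 25.0 RPKM after OGD-R (0.44 ± 0.08, FDR 0.51). Stab1, a scavenger receptor, stood at 0.33 ± 0.05 and 0.41 ± 0.14, and Edn1 (endothelin 1) at 0.35 ± 0.11 under NX/NG. The lower genes were Atoh8, a transcription factor induced by BMPs, under NX/NG (-0.98 ± 0.18) and Hey1 after OGD-R (-0.48 ± 0.19). The endothelial marker sum was 1429 and 1564 RPKM in Cort-/- against 1103 to 1390 RPKM in Cort+/+ under NX/NG, and 1298 and 1591 against 1197 to 1310 RPKM after OGD-R.

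From NX/NG to OGD-R no gene of the 6 lists passed the FDR. In Cort+/+ 2 of 101 were higher at an unadjusted p under 0.05 (1.98%, against 3.01% of all genes), Junb, an early response gene (0.57 ± 0.13), and Hes1, a Notch and BMP target (0.34 ± 0.06), and 5 were lower (4.95%, against 2.48%), Gja4 (-0.55 ± 0.18), Nos3 (-0.34 ± 0.10), Snai2 (-0.31 ± 0.08), Itgav (-0.21 ± 0.08) and Map3k7 (-0.13 ± 0.05). In Cort-/- 5 of 99 were higher (5.05%, against 2.21%) and 1 lower (against 1.87% of all genes). The higher genes included Col1a1 (1.13 ± 0.22), Cd109, Fbn1 (0.69 ± 0.25) and Junb (0.41 ± 0.12), and Nos3 was lower (-0.27 ± 0.09). In the interaction, Cd109 and Col1a1 (0.91 ± 0.37), 2 of 101, had an unadjusted p under 0.05 (1.98%, against 1.69% above 0).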

How the data were processed

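RNA-seq of cultured BECs was deposited as 2 tables, 1 for each environment. Per the labels and methods, libraries were stranded, poly(A)-selected and paired-end, and the labels name edgeR among the processing tools. The authors ran their reanalyzerGSE pipeline, and the aligner, counter, build and annotation are not given in the sources used here. The deposited RPKM values were scaled by the authors within each table. Columns with the authors' own comparisons (fold changes, p-values and FDRs) were not used, and samples with no column were not used here. The number of columns of values left without a sample was 0.

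RPKM multiplied by length gave whole reads (within 0.05) for at least 99.996% of values, 12386048 to 12390428 a library. Whether reads were reduced to a common number before deposit is not given in the sources used here. At this depth 39 of 49 members rested on more than 100 reads in every library, and the parts of counting error and of spread between libraries in each SE were not separated. Each comparison was fitted with limma 3.58.1 (R 4.3.3) by empirical Bayes with an abundance trend on log2(RPKM + 0.1) over all genes above 0, with the compared groups only, and the p-values of all genes were corrected together (Benjamini-Hochberg), with a call at an FDR of at most 0.05. Comparisons across environments used reads of both tables rescaled together by a trimmed mean of M values. The fits were tested on simulated data.

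The members and gene lists were chosen with earlier results of these data known. Members with an unadjusted p under 0.05 were named in each comparison, with the 2 most abundant of each role and up to 4 genes of each other list by smallest p. Replicate numbers were not treated as pairs in the main fits. Whether same-numbered libraries share a source could not be told from their deviations. Alternatives were each library left out, a pseudocount of 1, quantile normalization, a filter that kept genes with at least 1 RPKM in 2 or more libraries, limma-voom on the reads, a replicate block, a term for rRNA-poor libraries, all groups in 1 fit and, chosen after seeing the data, both rRNA-poor libraries left out. Promoter sequences are from RefSeq (GRCm38.p6) by symbol.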

Additional observations from a re-analysis of the deposited data

How the results depend on the processing

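The fold changes of the members with an unadjusted p under 0.05 kept their sign in all 290 combinations of gene and alternative, and 288 stayed on the same side of the FDR. The exceptions were Grem1 (-0.933) and Id2 (-0.954) under NX/NG with limma-voom, so that it called 2 members in place of 0. These genes were chosen for an unadjusted p under 0.05 in the main fit, which makes a change of sign unlikely. None was called there, so the same side of the FDR means not called. Neither count is a test of robustness. Counts of members with an unadjusted p under 0.05 moved more: with limma-voom from 13 to 21 under NX/NG, from 6 to 10 after OGD-R, from 3 to 6 in Cort+/+ and from 3 to 9 in Cort-/- between environments. With the term for rRNA-poor libraries the count after OGD-R was 10 and in the interaction 1. Leaving out 1 library gave 2 to 22 members under NX/NG, 2 to 6 in Cort+/+, 0 to 9 in Cort-/- and 0 to 1 in the interaction. With the replicate block the count was 2 after OGD-R and 9 under NX/NG. Correlations of same-numbered deviations from the group mean ran from -0.531 to 0.185. In a group of 2 libraries these deviations are mirror images of each other. The highest correlation between groups, 0.531, joined the 2 rRNA-poor libraries, which have different numbers. The check therefore cannot tell whether same-numbered libraries share a source. No blocked fit was made for the change of environment in Cort-/-, where only number 1 is shared.

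Among all genes, calls at the FDR under NX/NG (0) became 4 with all groups in 1 fit, 124 with limma-voom, 20 with a pseudocount of 1, and 0 to 683 without 1 library (683 and 543 where 1 Cort-/- library was left and its spread taken from the others). After OGD-R (0) they became 7, 5 with limma-voom, and 0 to 710. In Cort+/+ (9) they became 1 with limma-voom, 5 with a pseudocount of 1 and 0 with all groups in 1 fit, the filter, the rRNA term, the replicate block or 1 library left out (0 to 0). For the interaction (3) the count was 0 with the filter, limma-voom, a pseudocount of 1, the rRNA term, the replicate block and both rRNA-poor libraries left out, and 0 to 8 without 1 library. The cause of these moves was not tested. The precision of each member is limited by 2 Cort-/- libraries a group.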
